A study of Mus musculus with 6 samples.

Results

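The scanner file labelled bone marrow WT replicate 1 is 1 of the 6 arrays of a study of TIF1b, a corepressor of transcription encoded by Trim28, in KSL cells of C57BL6 mice. KSL cells carry c-Kit and Sca-1 and lack the lineage markers of mature blood cells, and in adult bone marrow they hold the hematopoietic stem cells and the earliest progenitors. This array was singled out because its scan and its column in the authors' value table do not hold the same values. Its scan was set against the scan of bone marrow WT replicate 2 and against its own table column, gene by gene, over 14406 genes.

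Per the labels, all groups carry a Cre transgene, controls included. The bone marrow WT samples are CreERT, Tif1bw/w and the bone marrow KO samples CreERT, Tif1bf/f, with 2 arrays each. For the second array of each genotype the labels read Tif2b in place of Tif1b. The fetal liver arrays, 1 per genotype, are Tie2-Cre, Tif1bw/w (WT) and Tie2-Cre, Tif1bf/f (KO), and Tie2-Cre acts in endothelial as well as blood cells. The donors' age beyond fetal or adult, the treatment that activates CreERT, its timing and the number of animals behind each array are not given in the sources used here. The description of this sample carries a line on c-Kit+ Lineage- cells with Hp1aKD, and that of its KO partner a line on Hp1gKD, beside lines that name them as bone marrow WT and KO. The labels thus disagree with each other on the fraction and the genotype of both samples, and "the replicate 1 scan" is used here for the file, with no claim on the cells behind it.

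Blood cells arise from stem cells through progenitors that give up one fate after another. Stem cells and early progenitors carry c-Kit and use GATA2 and MEIS1, and part of them already transcribe megakaryocyte genes. Lymphoid progenitors gain FLT3 and the interleukin-7 receptor before they turn on the B cell programme of EBF1 and PAX5, and granulocytes make their primary granules early and their secondary granules late. A sort for KSL cells removes cells with the surface markers of T, B, NK, granulocytic, monocytic and erythroid cells, so their genes show what else than KSL cells an array may hold.

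The files differ at the level of the measurement itself. For each of the other 5 arrays, 100% of probes with a ratio of at least 0.1 in the table lay within 1% of a constant multiple of that array's own scan. The replicate 1 column matched its own scan for 1.41% of 24572 probes, and the scan it came nearest to was bone marrow KO replicate 1 with 2.97%. Over 21436 probes above background in all sources, the replicate 1 scan correlated with the other 5 scans at Pearson's r between 0.928 and 0.94, while the table column correlated with bone marrow WT replicate 2 at 0.986 and with the replicate 1 scan at 0.948. These correlations are across probes of arrays that share a design, probes are not independent replicates, and the values are descriptions. The file headers place the scan and bone marrow KO replicate 1 on the same slide but in different rows of it (row 2 and row 1 of column 4), whereas each of the other pairs lies in neighbouring columns of 1 row. The scan had 27577 probes well above background, within the 24383 to 31419 of the other 5. Its 10 spike-in RNAs differed from those of KO replicate 1 by a median of 0.095 on the log2 scale (SD 0.18 over the 10) and from those of replicate 2 by 0.25 (SD 0.41). Genes at least 4-fold from replicate 2 made up 10.4% to 11.1% of the genes in each of the 4 equal areas of the array.

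A level is given on the log2 scale with each array's 75th percentile of signal at 0, and differences are log2 differences of such levels or the folds they correspond to. Of 14406 genes above background in at least 1 of the 3 sources, 878 (6.09%) were at least 4-fold higher in the replicate 1 scan than in the replicate 2 scan and 673 (4.67%) at least 4-fold lower. Against the table column, 644 genes (4.47%) were at least 4-fold higher in the scan and 649 (4.51%) lower. The table column itself differed far less from replicate 2, with 103 genes (0.715%) at least 4-fold higher and 44 (0.305%) lower. The KO arrays, 1 on each of the same slides, give 1 difference between arrays of the same label, in which slide and sample cannot be told apart. Of 14062 genes, 149 (1.06%) were at least 4-fold higher on KO replicate 1 and 162 (1.15%) lower. Against KO replicate 1, on its own slide, the scan had 758 of 13720 genes (5.52%) at least 4-fold higher and 728 (5.31%) lower. Scaled to the median of the housekeeping genes instead, 1090 genes were at least 4-fold lower than replicate 2, the median of all genes was -0.55, and 37.1% of the genes 4-fold apart were higher, against 56.6% on the 75th percentile scale. List medians nearer to 0 than that shift have no settled sign.

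The scan lay at least 2-fold above all 5 other scans for 743 genes (5.16%) and at least 2-fold below all 5 for 706 (4.9%). Each of the other arrays stood outside the range of the rest by that margin for 32 to 204 genes above and 35 to 93 below. A total of 398 genes (2.76%) were above background in the scan and in neither replicate 2 nor the table column. The reverse, above background in both of these but not in the scan, held for 527 genes (3.66%). Every comparison sets 1 array against 1 array, so no test and no p-value is given, and both comparisons of the scan share it.

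**Figure D1:**
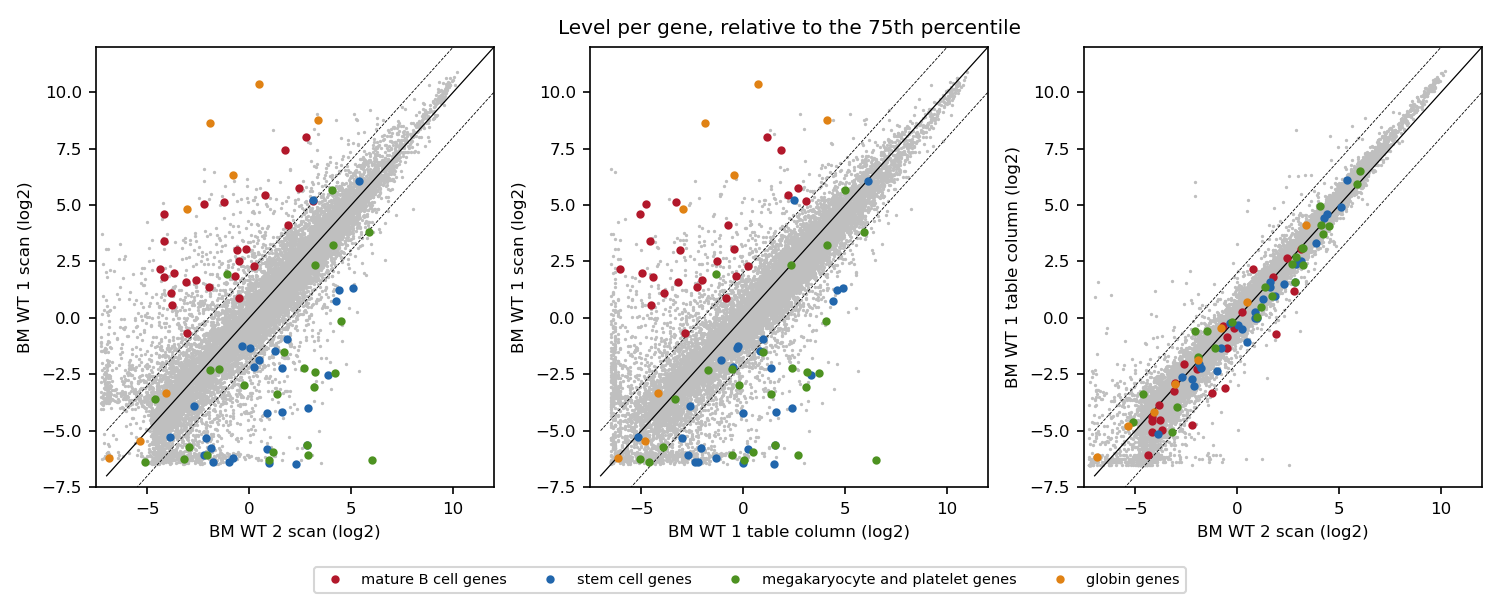
Level of each of 14406 genes (log2 relative to the array's 75th percentile) in the replicate 1 scan against the replicate 2 scan (left), in the scan against its table column (middle) and in the table column against replicate 2 (right). Dashed lines mark 4-fold. Coloured points are mature B cell, stem cell, megakaryocyte and globin genes. In the mature B cell list 24 of 25 genes were at least 4-fold higher on the left and 24 in the middle. In the stem cell list 22 and 16 of 28 were at least 4-fold lower. On the right 3 mature B cell genes and no stem cell, megakaryocyte or globin gene were 4-fold apart. For these counts a side not above background was raised to the background limit of its source. Points are drawn without this, so more of them can lie past the dashed lines, such as Ms4a1 on the right.

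The surface markers of the sort itself went in different directions. Kit, the receptor that defines the c-Kit gate, had a level of 1.30 in the scan, 4.16 in the table column, 4.35 in replicate 2, 4.31 and 4.17 on KO replicates 1 and 2, and 4.50 and 4.3 in fetal liver WT and KO. The scan was the lowest of all sources, 8.27-fold below replicate 2 and 7.24-fold below the table column, while the other 6 values lay within 0.34 of each other. Ly6a, which encodes Sca-1, was retained, at 4.48 in the scan, 3.36 in the table column, 4.75 in replicate 2, 3.60 and 6.04 on KO replicates 1 and 2, and 0.31 and 0.77 in fetal liver WT and KO. Its level in the scan lay inside the range of the other marrow sources, where Ly6a varied widely, and above both fetal liver arrays. Slamf1, which encodes the stem cell marker CD150, was at -2.16 in the scan, -0.49 in the table column, 0.22 in replicate 2, 1.64 and 1.53 on KO replicates 1 and 2, and -2.23 and -4.42 in fetal liver WT and KO. That placed the scan 5.21-fold below replicate 2 and at the level of fetal liver WT, and the gene was not well above background in fetal liver KO.

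Of 17 sorting and progenitor surface markers, 6 were at least 4-fold lower than in replicate 2 and 2 higher, with a median difference of -0.91 (-0.90 against the table column). All genes compared had a median of -0.066 and -0.094. Among the largest differences were those of Itga2b, the CD41 integrin chain (at least 146-fold lower), and Procr, the stem cell marker EPCR (14.1-fold lower). Procr was at -2.24 in the scan and between 1.38 and 2.59 in the other marrow sources. The 2 higher markers were those of lymphoid progenitors. Flt3 was at 6.34 in the scan, 4.97 in the table column, 4.07 in replicate 2, 3.23 and 2.10 on KO replicates 1 and 2, and 4.37 and 4.33 in fetal liver WT and KO, the highest level of all sources. Il7r, the interleukin-7 receptor chain, was at 2.35 in the scan against -1.53 in the table column and -1.05 in replicate 2, which is 10.5-fold higher than replicate 2.

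The lineage surface marker list was high in the scan. Most of its genes mark cells that a sort for KSL cells should leave out, but Ptprc is not confined to such cells. All measured members but Ptprc are also in the cell type lists below, so they are not separate evidence. Of 14 measured, all 14 were above background there, against 8 in the table column and 12 in replicate 2. At least 4-fold higher than replicate 2 were 11 of them and none was lower by that margin, with a median difference of 3.85. Ms4a1, which encodes the B cell antigen CD20, was 151-fold higher than in replicate 2 and at least 427-fold higher than in the table column. Itgax, the CD11c chain of dendritic and some NK and myeloid cells, was 106-fold and Cd3g, a chain of the T cell receptor complex, 81.1-fold higher than replicate 2. In these bulk RNA samples, more cells of a type and more RNA per cell cannot be told apart.

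**Figure D2:**
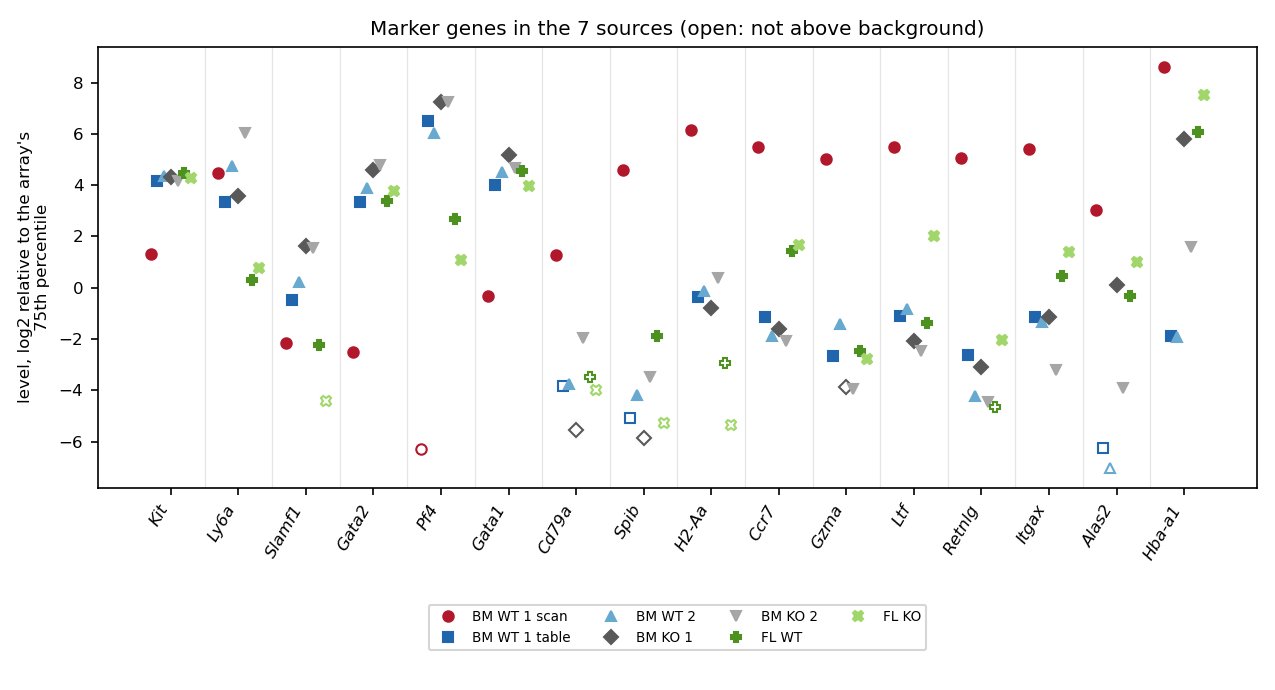
Level of 16 marker genes (log2 relative to the array's 75th percentile) in 7 sources, with 1 point per source and no replicates. Open symbols are not well above background. The replicate 1 scan (red circles) is the lowest source for Kit, Gata2, Pf4 and Gata1 and the highest for Cd79a, Spib, H2-Aa, Ccr7, Gzma, Ltf, Retnlg, Itgax, Alas2 and Hba-a1.

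Stem cell genes held the most members at least 4-fold lower of any list. Of 28 compared, 22 were at least 4-fold lower in the scan than in replicate 2 and 16 lower than in the table column, with medians of -2.97 and -2.29. Those not above background in the scan but above it in both replicate 2 and the table column numbered 13, against 3.66% of all genes compared. At least 2-fold below all 5 other scans were 14 genes, against 4.9% of all genes compared. Hlf, a transcription factor of stem cells, was at least 114-fold lower than replicate 2. Esam, a surface protein of stem and endothelial cells, was at least 98.3-fold lower. Gata2, a master factor of stem and progenitor cells, remained measurable, at -2.51 against 3.34 in the table column and 3.40 to 4.78 on the other 5 scans, 84-fold below replicate 2. The member at least 4-fold higher was Thy1, at 5.23 in the scan, 2.51 in the table column, 3.14 in replicate 2, 5.80 and 5.33 on KO replicates 1 and 2, and -0.47 and 1.42 in fetal liver WT and KO. Thy1, which T cells also carry, was 4.26-fold higher than in replicate 2 and lower than on both KO marrow arrays.

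Among 20 progenitor transcription factors all were above background in every source, and 6 were at least 4-fold lower than replicate 2 while 0 were higher. The largest differences were in Gata2, in Tal1, a partner of GATA factors in stem, erythroid and megakaryocyte cells (18.3-fold lower), in Meis1, a homeobox factor of stem cells (13.5-fold lower), and in Ikzf2 (12.2-fold lower). The median over the list was -0.92.

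Megakaryocyte and platelet genes were low in the scan. There 16 of 25 were above background, against 22 in the table column and 23 in replicate 2. Those not above background in the scan but above it in both replicate 2 and the table column numbered 6, against 3.66% of all genes compared. Of 24 compared, 15 were at least 4-fold lower than replicate 2 and the same number lower than the table column, with medians of -2.96 and -3.25. Pf4, the platelet chemokine CXCL4, was at -6.30 in the scan, 6.52 in the table column, 6.04 in replicate 2, 7.24 and 7.25 on KO replicates 1 and 2, and 2.69 and 1.08 in fetal liver WT and KO. It was not well above background in the scan, at least 1309-fold below replicate 2 and at least 1832-fold below the table column. Vwf, the platelet and endothelial von Willebrand factor, was 99.4-fold lower than replicate 2 and stayed above background at -2.43. The member at least 4-fold higher was Mrvi1, a substrate of cyclic GMP signalling in platelets and smooth muscle, 8.36-fold above replicate 2. The table column and replicate 2 differed little in this list, at a median of -0.15, and so did the KO arrays, at -0.033.

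The promoter of Pf4 is shown as an example of a gene of this list that was not above background in the scan. The window runs from 250 bases before to 50 after the annotated start (RefSeq, GRCm38.p6, chr5:90772185-90772484, plus strand). Capitals mark the only match to the GATA-factor motif AGATAA, searched on both strands (TTATCT on the other).
Pf4: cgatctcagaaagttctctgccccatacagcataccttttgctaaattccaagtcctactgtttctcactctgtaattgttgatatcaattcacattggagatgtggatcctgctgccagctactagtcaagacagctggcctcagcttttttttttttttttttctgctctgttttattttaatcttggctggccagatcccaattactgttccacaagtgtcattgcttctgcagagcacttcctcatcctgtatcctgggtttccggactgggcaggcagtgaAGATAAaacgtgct
The match lies 36 bases after the start. This motif was found in 6 of 19 megakaryocyte genes with a promoter window, and in 12.7% of 27025 genes with one. The motif and its letters were chosen after the values were seen, and a match is not a binding site.

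Mast cell and basophil genes followed the same direction. At least 4-fold lower than replicate 2 were 11 of 18, none was higher by that margin, and the median was -3.10 (-1.93 against the table column, where 8 were lower and 1 higher). Mcpt4, a mast cell protease, was at least 167-fold lower than replicate 2 and at least 13.5-fold lower than the table column. Il1rl1, the interleukin-33 receptor, was 37.7-fold and Cma1, mast cell chymase, 28.6-fold lower than replicate 2. Cma1 was only 1.67-fold lower than the table column, where it stood at -2.65 against 1.45 in replicate 2.

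Erythroid progenitor genes were low while late erythroid genes and adult globins were high. Of 14 erythroid progenitor genes, 9 were at least 4-fold lower than replicate 2, with a median of -2.32, and 8 lay at least 2-fold below all 5 other scans. Gata1, the factor that drives erythroid and megakaryocyte fates, was at -0.31 in the scan, 4.0 in the table column, 4.53 in replicate 2, 5.19 and 4.69 on KO replicates 1 and 2, and 4.55 and 3.98 in fetal liver WT and KO. The lowest of the other sources differed from the scan by more than the other 6 did among themselves. Car1, a carbonic anhydrase of early erythroid cells, was 15.2-fold lower. The member at least 4-fold higher was Rhd, an erythrocyte membrane protein, 55.1-fold higher than replicate 2 and at the level of fetal liver WT (2.66 and 2.69).

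Of 21 late erythroid genes, 7 were at least 4-fold higher than replicate 2 and 0 lower, with a median of 1.37. Alas2, the first enzyme of erythroid heme synthesis, was at 3.05 in the scan, -6.27 in the table column, -7.02 in replicate 2, 0.10 and -3.92 on KO replicates 1 and 2, and -0.33 and 1.01 in fetal liver WT and KO. It was not well above background in the table column and replicate 2, and the scan was the highest source. Slc4a1, the red cell anion exchanger band 3, was 104-fold and Trim10 at least 27.3-fold higher than replicate 2.

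Adult globins were among the genes with the largest differences. Hba-a1, adult alpha globin, was at 8.61 in the scan, -1.88 in the table column, -1.93 in replicate 2, 5.80 and 1.58 on KO replicates 1 and 2, and 6.09 and 7.53 in fetal liver WT and KO. The scan exceeded replicate 2 by 1493-fold and the table column by 1438-fold, and KO replicate 1 and both fetal liver arrays were also high. Hba-a2 was 956-fold, Hbb-bs 233-fold and Hbb-b2 142-fold higher than replicate 2. Alpha globin genes, and beta globin genes, are near-identical copies whose probes may share transcripts, so the members are not separate evidence. The KO arrays, too, were apart in globins, with a median of 2.44 for KO replicate 1 over KO replicate 2, against 7.51 for the scan over replicate 2. The embryonic globins Hbb-y and Hba-x, which fetal liver showed at 5.04 and -1.21 in WT and 6.22 and 1.71 in KO, were not well above background in the scan. Hbb-bh1, the third embryonic globin measured, was above background there at -3.32, 1.71-fold above replicate 2.

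The promoter of Alas2 shows the same motif in a gene of the opposite direction (RefSeq, GRCm38.p6, chrX:150547167-150547466, plus strand). Capitals mark AGATAA, here on the reverse strand.
Alas2: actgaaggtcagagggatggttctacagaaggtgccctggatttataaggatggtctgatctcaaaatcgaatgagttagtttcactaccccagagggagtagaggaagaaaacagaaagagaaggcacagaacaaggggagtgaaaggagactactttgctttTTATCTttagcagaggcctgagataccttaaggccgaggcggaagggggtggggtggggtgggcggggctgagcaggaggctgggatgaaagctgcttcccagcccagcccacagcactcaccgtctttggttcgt
The match begins 86 bases before the start. AGATAA was found in 6 of 12 late erythroid genes with a window, 3 of 11 erythroid progenitor genes, 1 of 6 globin genes, 1 of 21 stem cell genes and 1 of 20 mature B cell genes. The windows of Pf4 and Alas2 both hold the motif, and the genes differed from replicate 2 in opposite directions.

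B cell genes were higher in the scan in nearly every member. Of 18 pro-B and pre-B cell genes, all were above background in the scan, against 10 in the table column and 13 in replicate 2. At least 4-fold higher than replicate 2 were 17 and than the table column 15, with medians of 3.68 and 3.68, and 15 lay at least 2-fold above all 5 other scans. Vpreb3, which assists assembly of the pre-B cell receptor, was at 6.06 in the scan, -0.85 in the table column, -0.77 in replicate 2, -1.41 and 1.07 on KO replicates 1 and 2, and 2.28 and -3.58 in fetal liver WT and KO. The scan exceeded every other source, fetal liver WT by 3.77 on the log2 scale. Ebf1, the factor that commits cells to the B lineage, was at least 92-fold, Igll1, the surrogate light chain, 84.9-fold and Bst1 at least 57.5-fold higher than replicate 2. Cd79a, the signalling chain of the B cell receptor, was at 1.27 in the scan, -3.82 in the table column, -3.77 in replicate 2, -5.57 and -1.95 on KO replicates 1 and 2, and -3.48 and -3.99 in fetal liver WT and KO. It was not well above background in the table column, KO replicate 1, fetal liver WT and fetal liver KO, and in the scan it exceeded replicate 2 by 33-fold. Dntt, the terminal transferase of early lymphoid cells, was already high elsewhere in marrow and reached 9.21 in the scan, against 7.12 in the table column and 5.91 in replicate 2.

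The promoter of Vpreb3, one of the largest differences of the B lineage, is shown with its octamer motif ATGCAAAT (ATTTGCAT on the other strand) in capitals (RefSeq, GRCm38.p6, chr10:75948050-75948349, plus strand). Octamer motifs are known from immunoglobulin and other B cell promoters.
Vpreb3: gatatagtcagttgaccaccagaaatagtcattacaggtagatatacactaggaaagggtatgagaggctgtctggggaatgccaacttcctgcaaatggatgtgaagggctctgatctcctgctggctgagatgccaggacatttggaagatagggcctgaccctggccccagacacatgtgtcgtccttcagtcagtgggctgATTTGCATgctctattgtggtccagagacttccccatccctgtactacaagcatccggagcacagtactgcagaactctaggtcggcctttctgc
The match begins 45 bases before the start. The octamer was found in 1 of 14 pro-B and pre-B and 1 of 20 mature B cell genes with a window, and in 1.97% of all genes with one.

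Mature B cell genes differed as much. Of 25, 24 were at least 4-fold higher than replicate 2 and 24 than the table column, with medians of 4.36 and 4.79, and 23 exceeded all 5 other scans at least 2-fold. Spib, an ETS factor of B cells and plasmacytoid dendritic cells, was at 4.59 in the scan, -5.06 in the table column, -4.18 in replicate 2, -5.86 and -3.49 on KO replicates 1 and 2, and -1.90 and -5.26 in fetal liver WT and KO. It was 436-fold higher than in replicate 2, the largest difference of the list. Blk, a B cell kinase, was 95.1-fold higher. Summed over the list, the signal was 740.1 times the array's 75th percentile in the scan, against 30.5 in the table column and 36.2 in replicate 2. KO replicate 2 stood at 113, the highest of the other sources, and the list's median was -0.53 for KO replicate 1 over KO replicate 2. Immunoglobulin genes are not analysed here.

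All 11 MHC class II genes lay at least 2-fold above all 5 other scans, and 10 were at least 4-fold above replicate 2, with a median of 4.69. These genes present peptides to T cells and are carried by B cells, dendritic cells and macrophages. H2-Aa was at 6.17 in the scan, -0.36 in the table column, -0.12 in replicate 2, -0.79 and 0.39 on KO replicates 1 and 2, and -2.95 and -5.34 in fetal liver WT and KO. The scan exceeded every other source by 5.78 or more on the log2 scale. H2-DMb2 was 84.3-fold, H2-Eb1 51.9-fold and Cd74, the invariant chain, 27.2-fold higher than replicate 2.

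Plasma cell genes depended on the reference. The list of 13 had 4 members at least 4-fold higher and 3 lower than replicate 2, and a median of 0.26. Against the table column 5 were higher and 1 lower (median 0.85), and against KO replicate 1 5 were higher and 0 lower (median 1.33). Sdc1, which encodes the plasma cell antigen CD138 and is also made by early B cells, was 17-fold higher, Slamf7 9.81-fold and Irf4, a factor of activated B cells, 9.2-fold higher. Lower were Jchain, the joining chain of secreted antibody (5.53-fold), Tnfrsf17, the plasma cell receptor BCMA (5.65-fold), and Fkbp11 (at least 6.02-fold). Jchain was at 3.92 in the scan and 4.96 to 8.37 in the other marrow sources. The reference arrays themselves differed here, with a median of -3.41 for KO replicate 1 over KO replicate 2.

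T cell genes were higher in smaller steps. Of 24 compared, 16 were at least 4-fold higher than replicate 2 and 14 than the table column, none lower, with medians of 2.93 and 2.72. Ccr7, the homing receptor of naive lymphocytes and mature dendritic cells, was at 5.50 in the scan, -1.14 in the table column, -1.90 in replicate 2, -1.60 and -2.09 on KO replicates 1 and 2, and 1.45 and 1.68 in fetal liver WT and KO. The scan led fetal liver, the next highest, by 3.82 on the log2 scale. Cd2, an adhesion receptor of T and NK cells and of mouse B cells, was 153-fold, Cd3g 81.1-fold and Cd5, of T cells and a subset of B cells, 50.9-fold higher than replicate 2. Of 12 thymocyte genes, 6 were at least 4-fold higher, among them the recombinase Rag1 (49.2-fold), Arpp21 (14.4-fold), Dntt (9.81-fold) and the chemokine receptor Ccr9 (9.65-fold). The first 3 of these are also in the pro-B and pre-B list, as is Rag2, another of the 6, and Ccr9 is also in the dendritic cell list. Ptcra and Themis, also on the thymocyte list, were not above background in any source and were not compared.

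NK cell and cytotoxic genes were high in the scan. All 19 of 19 were above background, against 10 in the table column and 14 in replicate 2. At least 4-fold higher than replicate 2 were 16, none was lower, and the median was 4.04. Gzma, granzyme A, was at 5.01 in the scan, -2.66 in the table column, -1.42 in replicate 2, -3.89 and -3.95 on KO replicates 1 and 2, and -2.46 and -2.77 in fetal liver WT and KO. The scan alone was above 0. The inhibitory receptor gene Klra8 was at least 200.1-fold higher than replicate 2, where it was not well above background, Klrd1, the CD94 receptor, 80.6-fold, and the chemokine gene Xcl1 70.7-fold. Klra genes are a family of close copies, so probes may share their transcripts.

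Neutrophil genes were split by stage. Of 24 secondary granule and mature neutrophil genes, all were above background in the scan, 18 were at least 4-fold higher than replicate 2 and 17 than the table column, with medians of 4.55 and 3.75. Ltf, the secondary granule protein lactoferrin, was at 5.49 in the scan, -1.12 in the table column, -0.81 in replicate 2, -2.09 and -2.47 on KO replicates 1 and 2, and -1.38 and 2.02 in fetal liver WT and KO. Retnlg, a resistin-like protein of mature neutrophils, was 622-fold, Stfa2l1 187-fold and the formyl peptide receptor Fpr2 at least 57.5-fold higher than replicate 2. Fetal liver also carried part of this list: 12 of 24 members lay at least 2-fold above all 5 other scans, and Stfa2l1 stood at 3.47 in the scan and 3.97 in fetal liver WT. Primary granule genes, made by progenitors, gave a median near or below 0 against both WT references. Of 9, none was at least 4-fold higher and 1 lower than replicate 2, with a median of -0.44 (-1.69 against the table column). Prtn3, proteinase 3, was 6.5-fold lower than replicate 2, Ctsg, cathepsin G, 1.97-fold and Gfi1, a repressor of granulocyte progenitors, 2.42-fold lower, while Cebpe, which drives secondary granules, was 3-fold higher. Against KO replicate 1 the list's median was 0.78, with 3 genes at least 4-fold higher and 0 lower. This list varied between the reference arrays, at a median of 1.71 for KO replicate 1 over KO replicate 2.

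Monocyte and dendritic cell genes were higher as well. Of 17 monocyte and macrophage genes, 8 were at least 4-fold higher than replicate 2 and 4 than the table column, with medians of 1.85 and 1.17. None was at least 4-fold lower than replicate 2 and 1 was lower than the table column by that margin. Ly86, the MD-1 protein of B cells and macrophages, was 11.6-fold, the endotoxin coreceptor Cd14 11.4-fold and the pore protein Mpeg1 11.3-fold higher than replicate 2. Klf4 was 18.5-fold higher than replicate 2 but at 4.71 in the scan and 4.74 in the table column. Of 14 dendritic cell genes, 8 were at least 4-fold higher than replicate 2, with a median of 2.44. Cd209a, a C-type lectin of monocyte-derived dendritic cells, was at least 138-fold and Klk1 at least 51.7-fold higher, and Ly6d, of early B cells and plasmacytoid dendritic cells, reached 8.0 against 2.79 in replicate 2. The dendritic and B cell lists share Ly6d.

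Resident macrophages, eosinophils and the non-blood cells of marrow showed no comparable gain. No resident macrophage gene of 13 was at least 4-fold apart from replicate 2 or the table column, and 8 of 17 were above background in the scan. Cd5l, of tissue macrophages, and C1qc, of the complement system, were not well above background there, Clec4f, the Kupffer cell lectin, was at least 3.27-fold higher and the iron exporter Slc40a1 2.51-fold higher. Of 12 eosinophil genes, 1 was at least 4-fold higher than replicate 2 (Prg3, 7.28-fold) and 1 lower (Epx, eosinophil peroxidase, at least 6.48-fold). Prg2 was 3.14-fold lower and Alox15 at least 3.45-fold higher.

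Of 18 stromal and bone genes, 8 were above background in the scan. Cxcl12, the niche chemokine, was at least 8.47-fold and the collagen gene Col1a2 15.5-fold lower than replicate 2, Lepr was 2.52-fold higher, and Spp1, osteopontin, was 40.3-fold higher. Among 13 endothelial genes 5 were at least 4-fold lower, and Tie1, which is also on the stem cell list, was at least 38.4-fold lower. Cdh5, the endothelial cadherin, was the member at least 4-fold higher, at 0.33 in the scan, at least 41.8-fold higher than replicate 2 and not well above background in any other source. Of 14 hepatocyte genes, 4 were above background in the scan. Afp, fetal alpha-fetoprotein, was 15.7-fold, Ambp 1.49-fold, Serpina1a at least 1.47-fold and Trf 1.31-fold lower than replicate 2, and Alb was not well above background in any marrow source.

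**Figure D3:**
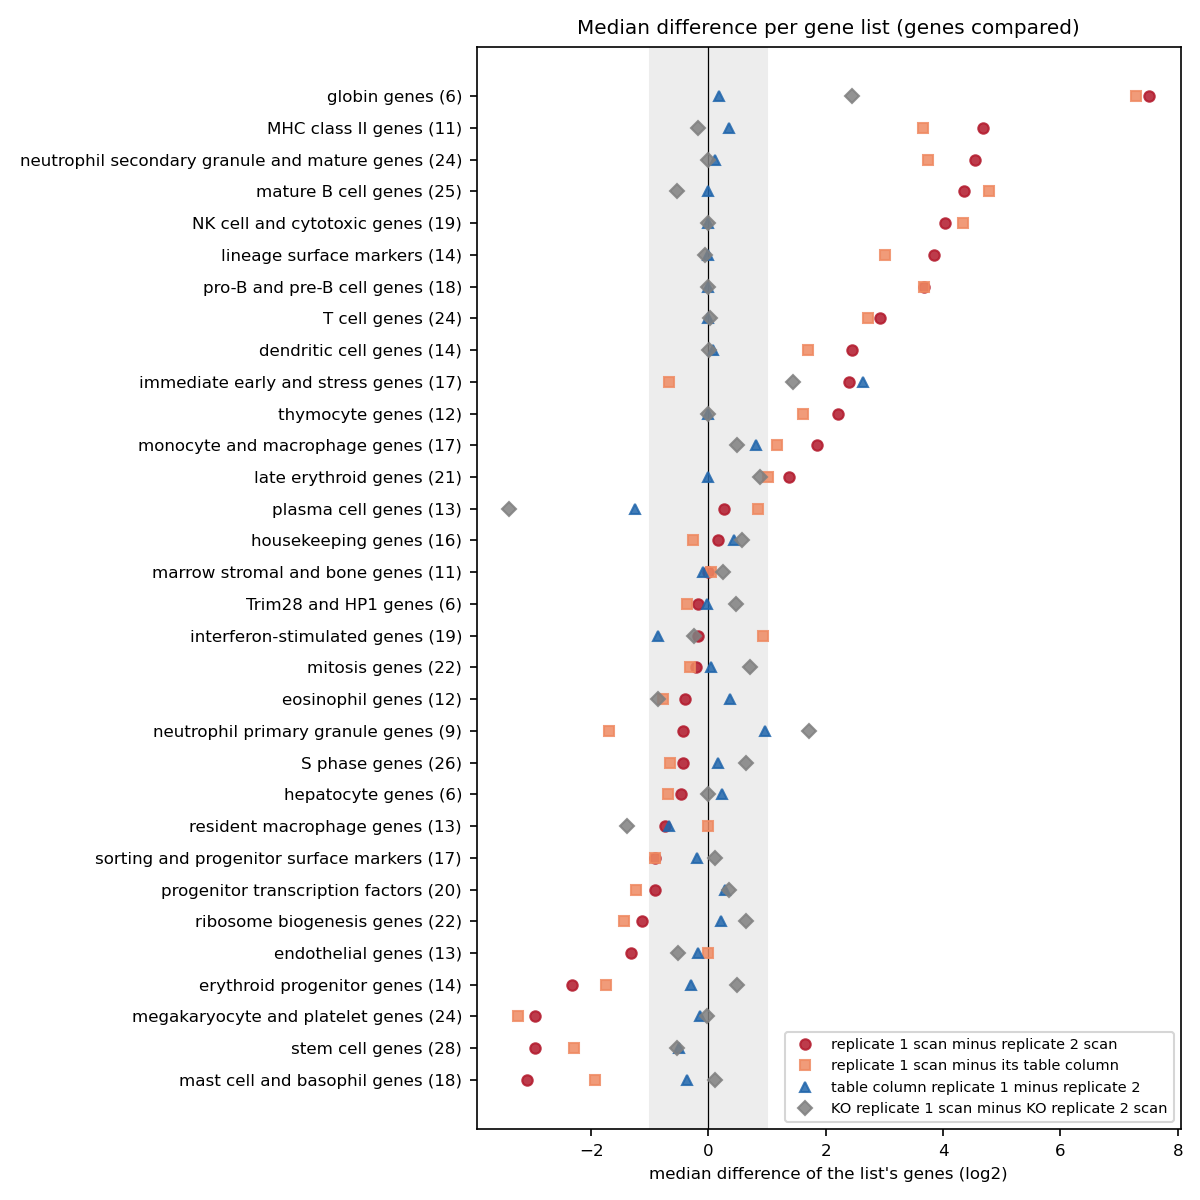
Median log2 difference of each gene list with at least 5 genes compared, with the number of genes in brackets, for the replicate 1 scan minus the replicate 2 scan, the scan minus its table column, the table column of replicate 1 minus that of replicate 2, and KO replicate 1 minus KO replicate 2. The grey band is within 2-fold. The scan's medians reach from -3.10 to 7.51 against replicate 2 and from -3.25 to 7.29 against its table column, and the table column differs from replicate 2 by a median of over 2-fold for immediate early and plasma cell genes.

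Genes of growth and division differed by less than 4-fold in nearly all members. Every one of 22 ribosome biogenesis genes was above background in all sources, and the list's median was -1.13 against replicate 2 and -1.43 against the table column. At least 4-fold lower than replicate 2 were 3, and the largest differences were in Gnl3, nucleostemin (5.65-fold lower), Polr1b, a subunit of RNA polymerase I (5.33-fold), Dkc1, dyskerin (4.08-fold), and Nop2 (3.49-fold). S phase genes had a median of -0.44 and mitosis genes of -0.21, with no member 4-fold apart in either list. The largest were in the replication factors Cdc6 (2.24-fold lower), Chaf1a (1.94-fold), Tyms (1.81-fold) and Gins1 (1.8-fold), and among mitosis genes in Cenpf (at least 1.86-fold), Aurkb (1.82-fold), Cdk1 (1.8-fold) and Ccnb1 (1.58-fold). The KO arrays differed by 0.64 and 0.71 in these lists. Housekeeping genes had a median of 0.16, with Actb 2.21-fold and B2m 1.77-fold higher and Pgk1 1.89-fold lower. Interferon-stimulated genes had a median of -0.18 against replicate 2, with Ifih1 3.76-fold, Oasl2 3.18-fold and Ifit1 1.88-fold lower and Bst2 3.03-fold higher. Against the table column their median was 0.94, with 2 genes at least 4-fold higher and 0 lower, and the table column itself stood at a median of -0.86 from replicate 2.

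In 2 gene groups the scan was closer to the table column and KO replicate 1 than to replicate 2. Xist, the transcript of the inactive X chromosome, was at 2.14 in the scan, 1.58 in the table column, -6.83 in replicate 2, 1.33 and -6.77 on KO replicates 1 and 2, and -0.95 and 0.33 in fetal liver WT and KO. The scan, the table column and KO replicate 1 were high and both arrays of the other marrow slide were not well above background. The Y-linked Eif2s3y was at -6.30 in the scan, -6.51 in the table column, 2.51 in replicate 2, -6.11 and 2.02 on KO replicates 1 and 2, and 0.52 and -1.60 in fetal liver WT and KO, with the same 3 sources not well above background. Ddx3y and Uty, also on the Y chromosome, were not well above background in the same 3 sources and were measured on both arrays of the other slide, and Kdm5d was not well above background in any source. Fetal liver showed both Xist and Eif2s3y. The comparison of the scan with replicate 2 and that of the KO arrays thus each set a source with Xist against a source with Y-linked transcripts. In the marrow samples, other differences that go with this pattern cannot be told apart from those that go with the slide.

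Immediate early and stress genes, which respond within minutes to handling of cells, had a median of 2.40 for the scan over replicate 2, with 9 of 17 at least 4-fold higher. The table column exceeded replicate 2 by a median of 2.64, and KO replicate 1 exceeded KO replicate 2 by 1.43. Against the table column the scan's median was -0.67, and against KO replicate 1 it was -0.00070. Klf2 was at 7.79 in the scan, 8.31 in the table column, 2.90 in replicate 2, 8.03 and 3.67 on KO replicates 1 and 2, and 5.75 and 5.42 in fetal liver WT and KO. The scan, the table column and KO replicate 1 stood at 7.79 or more and both arrays of the other marrow slide at 3.67 or less. Hspa1a, a heat shock protein, was 53.5-fold higher in the scan than in replicate 2 and 5.22-fold lower than in the table column, Atf3 37.2-fold and Egr2 8.99-fold higher than replicate 2. Their part in the cell type differences was not tested. Against KO replicate 1, on the slide of the scan, the medians were 5.04 for mature B cell, 4.65 for pro-B and pre-B cell, 4.67 for NK cell and 4.73 for secondary granule genes, and -3.80 for stem cell and -3.58 for megakaryocyte genes, each as far from 0 as against replicate 2 or farther. They were nearer to 0 for MHC class II (3.72), T cell (2.06), globin (2.12) and late erythroid genes (0.060).

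The deleted gene itself gave the scan an intermediate place. Trim28 was at 2.45 in the scan, 5.18 in the table column, 5.55 in replicate 2, 1.28 and 0.75 on KO replicates 1 and 2, and 5.97 and 1.68 in fetal liver WT and KO. The scan lay above all 3 KO arrays and below all WT sources, 8.58-fold below replicate 2 and 2.24-fold above KO replicate 1. The probe's place relative to the floxed exons is not known here, so it is no full check of the genotype. Trim24, a TRIM family relative that binds chromatin, was at 5.17 in the scan, 1.79 in the table column, 1.81 in replicate 2, 2.97 and 3.17 on KO replicates 1 and 2, and 1.52 and 3.24 in fetal liver WT and KO. All KO arrays exceeded all other WT sources, and the scan exceeded them all. Of the HP1 genes, which encode the chromatin proteins that TIF1b binds, Cbx5 (HP1 alpha) was at 1.03 in the scan, 1.86 in the table column, 1.93 in replicate 2, 2.20 and 1.58 on KO replicates 1 and 2, and 3.14 and 3.11 in fetal liver WT and KO. The scan was the lowest of the 7 sources, 1.87-fold below replicate 2 and at a log2 difference of -0.55 from the next lowest, KO replicate 2. Cbx3 (HP1 gamma) was at 6.06 in the scan and 6.78 on KO replicate 1, and Cbx1 (HP1 beta) at -0.90 and -0.58. The knockdowns of HP1 alpha and HP1 gamma that the descriptions of the scan and of KO replicate 1 name were not tested by these values.

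The other sources give 18 genes that were above background on all 3 KO arrays and in none of the 3 WT sources other than the scan. In the scan 8 of them (44.4%) were above background, against 220 of 5387 (4.08%) genes that were off in all 6 of these sources. Those present included Upk1b, a uroplakin, at 2.05, Cyp2a4 at 3.29 and Ak7, an adenylate kinase, at -0.15. Those not above background included Cyp2b10 and Ppp1r3g, which reached 2.75 and 1.47 on KO replicate 1 and were at -5.70 and -6.12 in the scan. Of 12 genes on in the 3 WT sources and off on the 3 KO arrays, 5 (41.7%) were above background in the scan, against 11068 of 11242 genes on in all 6 of these sources (98.5%). The 12 were weak, at -4.50 to -1.42 in replicate 2, and the lowest flagged level of the scan was -4.32. The 11242 genes were not matched to them for level, so these shares are not like for like. Nor are 44.4% and 4.08%, because the 18 genes were detectable on 3 arrays and the 5387 in none of the 6 sources. These counts and examples were chosen after the values were seen, part of the genes belong to the lists above (Klrd1 is 1 of the 5), and no genotype is read from them.

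**Figure D4:**
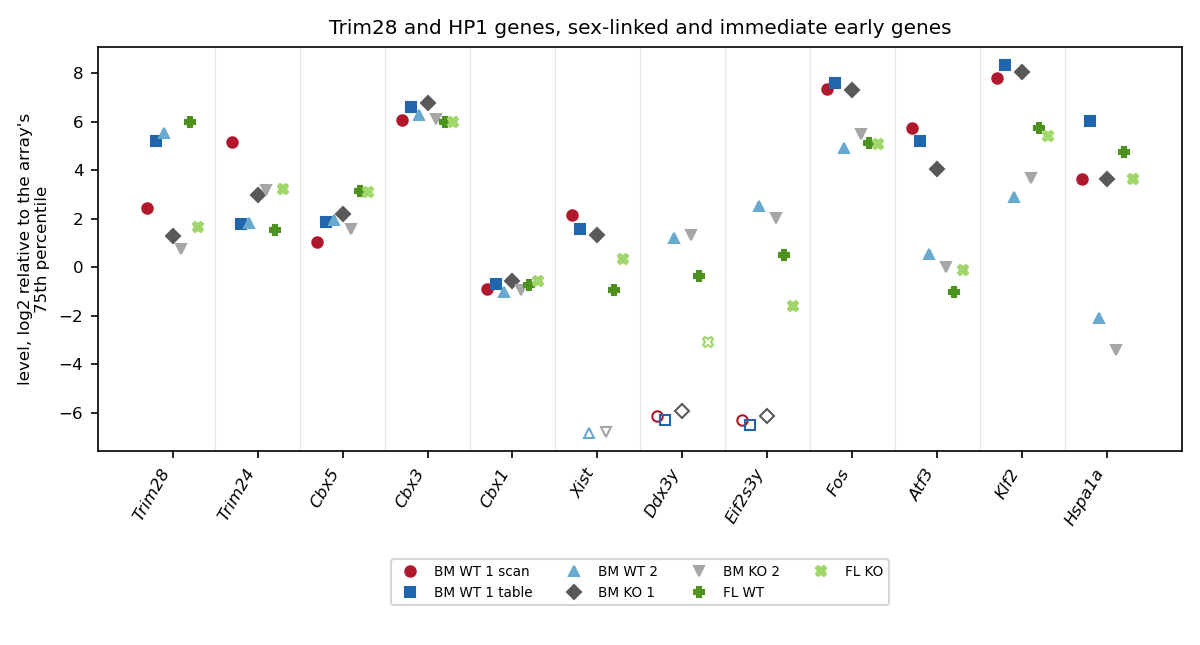
Level of Trim28, Trim24 and the HP1 genes, of 3 sex-linked genes and of 4 immediate early and stress genes (log2 relative to the array's 75th percentile) in 7 sources, with 1 point per source and no replicates. Open symbols are not well above background. The replicate 1 scan lies between the KO and WT sources for Trim28, is the highest for Trim24 and the lowest for Cbx5, and goes with the table column and KO replicate 1 for Xist, Ddx3y, Eif2s3y, Fos, Atf3 and Klf2.

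The genes with the largest differences over the whole array, ranked by the smaller of the 2 differences, repeated these cell types. Beside the 3 globins, Spib and Retnlg, the 12 highest were Stfa1, Cstdc5, Csta2 and Cstdc4, stefin-type protease inhibitors of neutrophils, Sdc4, a syndecan, Upb1, an enzyme of pyrimidine breakdown, and Nccrp1. Stfa1 was 447-fold higher in the scan than in replicate 2, Cstdc5 294-fold, Csta2 404-fold and Cstdc4 218-fold. These 4 are members of a family of near-identical genes, and 3 of them, Stfa1, Cstdc5 and Cstdc4, were higher still in fetal liver WT. Sdc4 was at least 618-fold and Upb1 219-fold higher than replicate 2. Nccrp1 was at 6.08 in the scan, -2.38 in the table column, -2.23 in replicate 2, 2.70 and 1.1 on the KO marrow arrays, and -1.0 and 6.47 in fetal liver WT and KO. Each KO array thus exceeded its WT partner for Nccrp1, when the table column stands for the partner of KO replicate 1.

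The 12 lowest were led by Pf4 and included Itga2b and Hlf of the lists above. Cavin2, a caveolar protein of platelets, was at least 228-fold lower than replicate 2. Rab38, a small GTPase of granule formation, was 213-fold, Dach1, a transcription cofactor, at least 211-fold, Vill, a villin-like protein, 165-fold and the cyclophilin gene Ppic 147-fold lower. Tfr2, the second transferrin receptor of erythroid cells and liver, was 108-fold lower. Mdga1 was at least 119-fold and Cdk18, a cyclin-dependent kinase, at least 83.1-fold lower, and neither was above background in the scan. Dach1 and Mdga1 were also lower on all KO arrays than in the WT source of the same pair, at -0.56 and -2.05 on KO replicate 1 against 3.20 and 2.00 in the table column.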

How the data were processed

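Agilent 1-colour arrays measured RNA (10 ng of total RNA per sample, per the labels) of 6 samples, and the submitters' processing notes name Agilent Feature Extraction 10.7.1.1. The deposited scanner files give signal intensity per spot, in a processed-signal column per the file headers. The authors' value table holds a linear ratio per probe, and no source used here states its scale. For 5 columns it was a constant multiple of that array's scan, and its column medians were 0.0705, 0.0709, 0.057, 0.056, 0.063 and 0.064 for fetal liver WT and KO, bone marrow WT and KO replicate 1, and bone marrow WT and KO replicate 2. The direction of the ratio follows the signal, and its centring is unknown for bone marrow WT replicate 1.

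Spots of a probe were averaged without control and outlier spots, log2 intensities were centred on each array's 75th percentile, and a gene was read from its brightest probe. Of 55681 probes, 26762 matched a RefSeq symbol (20284 genes). A probe counted as above background by the scanner's flag, and in the table column above a level of -3.7, which gave the same answer as the flags of KO replicate 1 for 99.1% of probes. A side not above background was raised to its array's lowest flagged level and its fold is written "at least". Named were the marker, Trim28, HP1 and sex-linked genes, the 4 genes of each list with the largest difference from replicate 2, members at least 4-fold apart against their list's direction, and the 12 highest and lowest genes by the smaller of both differences, plus values chosen after they were seen where the text says so. Gene lists and rules were chosen with earlier results of these data known. Alternatives covered scaling, background correction (limma's normexp, offset 50, on median signals), filter, probe, fold and reference. Python 3.11.15, numpy 2.4.6, pandas 2.3.3, R 4.3.3 and limma 3.58.1 were used, checked on simulated data. The number of arrays limits the precision. Values of some named genes are not reported here.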

Additional observations from a re-analysis of the deposited data

How the results depend on the processing

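No paired analysis was possible because the comparison lies within 1 group and comes from no test, and leaving out a replicate would leave nothing to compare. Of 311 values of list medians past 2-fold under other processing, 310 kept their direction and 304 stayed past 2-fold, and of 1583 values of genes past 4-fold all kept their direction and 1562 stayed past it. The exception was the endothelial median, 0.55 over genes above background in both sources. Most genes tracked here were named for their large differences in these same data, so a kept direction was likely from the start. A change of filter alters which genes are included and leaves each gene's own value as it was. The filter settings therefore could not turn a gene's direction, and the gene tally is no independent check. Counts of genes 4-fold higher and lower than replicate 2 were 584 and 340 with normexp, and 2132 and 2083 at 2-fold. The lower count was 1090 with housekeeping scaling, 423 for genes above background in both sources and 1016 against fetal liver WT. Against the table column, the lower count was 415 with normexp, which corrected the scan but not the column. The higher and lower counts against the column were 412 and 425 above background in both and 1521 and 2223 at 2-fold. The table columns differed by 4-fold for 265 genes with no filter, 93 above background in both, 807 at 2-fold and 314 with no floor, which was chosen after seeing the data. The KO scans differed for 131 genes with normexp, 181 above background in both, 1305 at 2-fold and 532 with no floor. The match with the own scan was 7.14% at a tolerance of 5%. With KO replicate 1 as reference, the medians of immediate early and sex-linked genes became -0.00070 and 0.80, and Thy1 -0.58, Hspa1a -0.00070, Klf2 -0.24, Egr2 -0.0091 and Trim28 1.16. With KO replicate 2, Thy1 was -0.10, Prtn3 0.79 and Trim28 1.69. With fetal liver WT, Jchain was 6.15, Stfa2l1 -0.50, Rhd -0.030, Prg3 -5.09, Hspa1a -1.12, Stfa1 -3.05, Cstdc5 -3.19, Cstdc4 -2.38 and Slamf1 0.068. Against the table column of replicate 2, Hspa1a was 5.74. The cause of these changes was not tested beyond the choice of reference, filter or fold itself. Normexp could not be applied to table columns. Its values against the table column, also those in the tallies above, thus set a corrected scan against an uncorrected column and are not like for like. Signals below background give bounds, and 1 array per source leaves the spread between arrays unknown.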
